A study of Rattus norvegicus with 6 samples.

Results

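Hyaluronan is the long unsulfated sugar chain on which cartilage proteoglycans are assembled, and 9 genes of its synthesis, breakdown and binding were examined in rat chondrocytes. The genes were chosen by symbol from the 18420 genes of the deposited table. They were the synthases Has1, Has2 and Has3, the hyaluronidases Hyal1 and Hyal2, the matrix binding proteins Vcan and Tnfaip6, and the hyaluronan receptors Cd44 and Hmmr. The rule names them by symbol and uses no measured value, though earlier results of these data were known when it was set. Each of the 9 symbols was found once. The cells were WT primary chondrocytes of male Sprague-Dawley rats, taken from knee and hip cartilage and used at the third passage. In the TNF-α group (n = 3), the cytokine was given at 10 ng/mL for 6 h. In the TNF-α+NFL group (n = 3), the same 6 h were followed by Nanofat lysate (NFL) up to 30 h. NFL is the supernatant of repeatedly frozen and thawed cells that were released from rat abdominal fat with collagenase. All 6 libraries therefore came from cells exposed to TNF-α, and untreated cells were not analysed here. The study does not state when the cells were harvested. Since harvest at the end of each treatment would make the times differ, an effect of NFL and an effect of time cannot be told apart.

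Groups are named by the deposited labels. In the study's supplementary gene list, the logarithmic ratios of both groups to untreated cells put the groups in the opposite order for nearly all genes that have a ratio for both, and which source is right was not settled. Every direction below therefore holds for the libraries as they are labelled. The study calls the replicates of a group independent biological replicates, and neither it nor the labels say which animals or cultures each came from. The median ratio of variance to mean between replicates, among genes with many counts, was 1.86 in the TNF-α group. In the TNF-α+NFL group it was 1.06, close to counting noise. The SDs, intervals and p-values below may therefore not measure the spread between animals, and this was not tested.

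Hyaluronan is polymerised at the inner face of the plasma membrane by hyaluronan synthases, which join glucuronic acid and N-acetylglucosamine and push the growing chain out of the cell. Hyaluronidase 2 at the cell surface and hyaluronidase 1 in lysosomes cut the chain, and lysosomal enzymes then remove its sugars. In cartilage the chain carries aggrecan, held by link protein, and is anchored to the chondrocyte by CD44, and Has2 is known as the main synthase of chondrocytes.

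RNA-seq gave between 19344893 and 19725135 estimated counts per library. For the labelled cell type 15 chondrocyte markers were examined, of which 13 were tested between the groups, which does not test cell identity. By edgeR 0 of them passed an adjusted p of 0.05 and 2 had an unadjusted p under 0.05, beside 0.611% and 11.1% of all genes, with 10 positive and 3 negative values, and the smallest adjusted p, 0.052, was that of Col11a1. DESeq2 called 1 of the 2 for which it gave an adjusted p, beside 2.44% of all genes. Prg4 (lubricin) and Col11a1 were abundant, at 947.6 to 1329 and 404 to 533 TPM (transcripts per 1000000, a level corrected for transcript length). Col2a1, the main collagen of cartilage, was at 7.10 to 9.54 TPM, beside 1123 to 1401 TPM for Col1a1, a collagen of fibroblasts, and Matn1 was at 0 or 1 count in every library. Sox9, Acan and Comp were also low, at 3.93 to 5.07, 4.47 to 6.12 and 7.64 to 9.81 TPM. Endothelial markers summed to at most 1.26 CPM (normalised counts per 1000000), with Kdr at 0 counts in all 6. The 8 smooth muscle and pericyte markers summed to 3235 to 3244 CPM in the TNF-α group and to 3664 to 3855 CPM in the TNF-α+NFL group, with Acta2, Mcam and Myh11 higher with NFL at an adjusted p under 0.05 by edgeR, 6 of the 7 tested positive and Des negative, where 0.408% of all genes were called higher. The 8 synovial fibroblast markers summed to 7917 to 8772 CPM over all libraries, beside 3518 to 4275 CPM for the 15 chondrocyte markers. Thy1, on the fibroblast list, was at 2402 to 2733 TPM. Of 7 tested synovial fibroblast markers, Pdpn was lower with NFL (log2 fold change -0.20, edgeR adjusted p = 0.030), where 0.204% of all genes were called lower, and the other 6 did not pass. The 7 matched macrophage markers summed to 79.4 to 84.1 CPM and to 70.6 to 72.4 CPM, in the same order. That sum was nearly all Cd68 and Cd14. TNF-α replicate 1 held 40 counts of Csf1r, 15.0 of Lyz2, 11 of Tyrobp and 7 of Ptprc, where no other library had more than 7 counts of Csf1r and 2 of Ptprc, and Lyz2 and Tyrobp were at 0 in the other 5. By edgeR none of the 3 tested macrophage markers passed (smallest adjusted p = 0.16). The part of these marker differences in the results below was not tested, and in bulk RNA fewer cells of a type and less RNA per cell cannot be told apart. Which cell type the RNA of the hyaluronan genes came from was not resolved.

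None of the 9 hyaluronan genes differed between the groups at an adjusted p under 0.05 by the quasi-likelihood test of edgeR, where 0.611% of the 13250 genes tested did. DESeq2 gave an adjusted p for 4 of the 9, the others having too few counts for its filter, and called 0 of them, where it called 2.44% of all genes with an adjusted p. Cd44 was the 1 gene of the 9 at an unadjusted p under 0.05 by DESeq2, as were 5.93% of all genes. All 9 passed the filter on low counts. The gene with the smallest p was Cd44, whose mean was 7.41% higher with NFL, followed by Has2, whose fitted fold change was 0.835. These 2 genes had an unadjusted p under 0.05, as had 11.1% of all genes tested, with 5.66% higher and 5.45% lower. In normalised counts the replicates of the groups did not overlap for Cd44, which was higher, and for Has2 and Hyal2, which were lower, in the group with NFL. Such a separation was seen in 16.8% of all genes tested, with 8.66% higher and 8.17% lower. In TPM the groups overlapped for Has2 and Hyal2. The median log2 fold change of the 9 genes was -0.090, with 2 positive and 7 negative values, beside -0.0035 for all genes, with 6385 positive and 6865 negative values. Without TNF-α replicate 1, this median was -0.015.

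**Figure D1:**
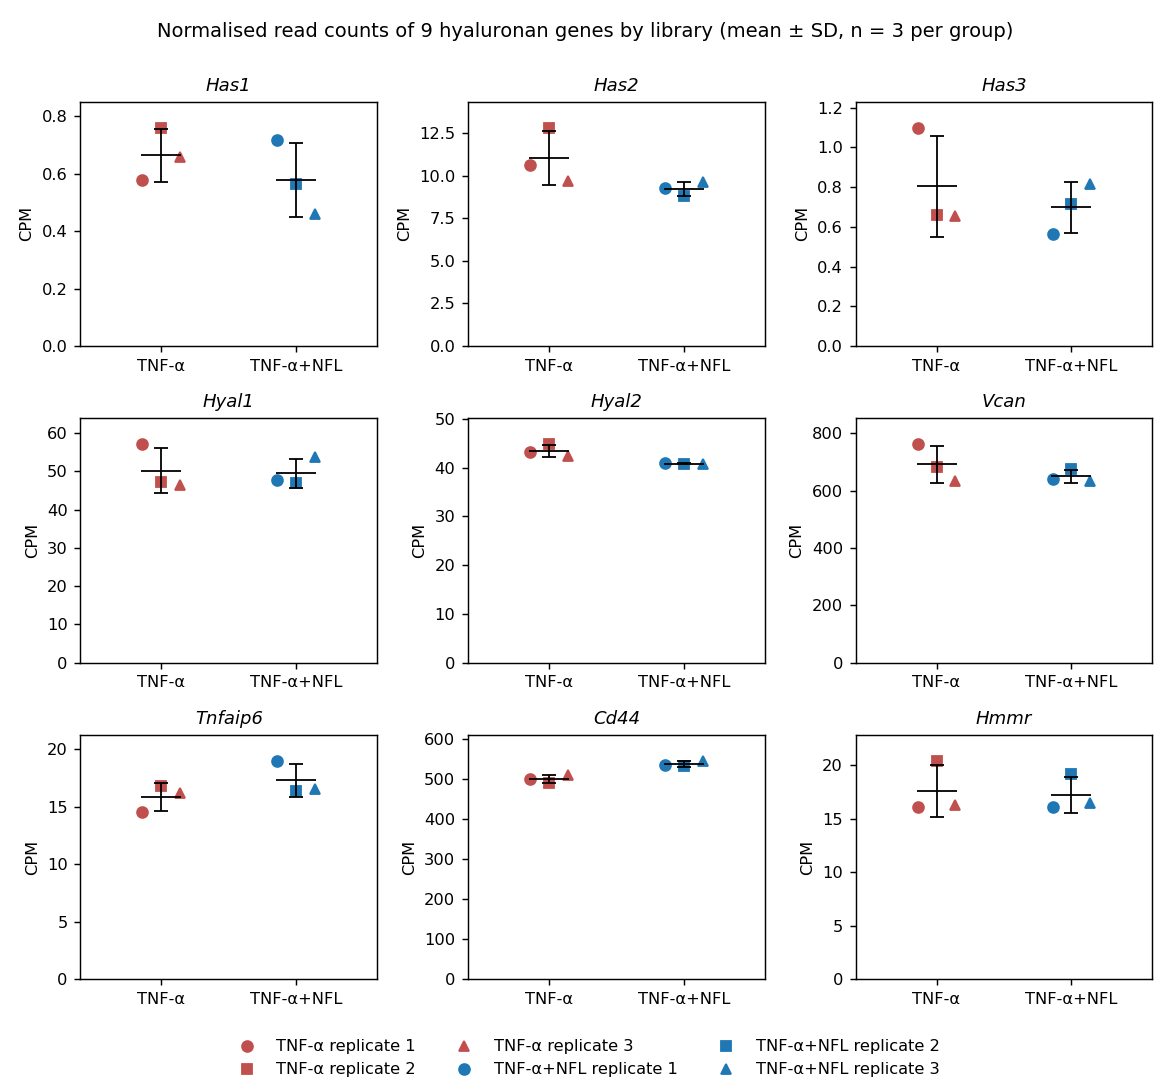
Normalised read count (CPM, from 0) of each hyaluronan gene in each library, with the mean and SD of the 3 replicates of a group as bars. The groups are separate for Cd44, Has2 and Hyal2 and overlap for the other 6 genes.

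The levels of the 9 genes spanned more than 3 orders of magnitude. Corrected for length, Cd44 was the most abundant at a mean of 246 TPM over the 6 libraries, above 96.4% of all genes in the table. Vcan followed at 136 TPM, then Hyal2 at 44.3, Hyal1 at 36.4, Tnfaip6 at 24.1 and Hmmr at 15.0 TPM. The synthases were lowest, with Has2 at 4.74 TPM, Has1 at 0.583 and Has3 at 0.200 TPM. Of neighbours in this order, only Hyal2 and Hyal1 had overlapping ranges over the 6 libraries. The order was the same with FPKM, which is no separate check, since within a library it differs from TPM only by a scale factor. The summed TPM of Hyal1 and Hyal2 was 11.7 to 16.1 times that of the synthases, and Cd44 was at 38.7 to 61.1 times Has2. RNA levels do not give enzyme activity or the amount of hyaluronan, which were not measured here.

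**Figure D2:**
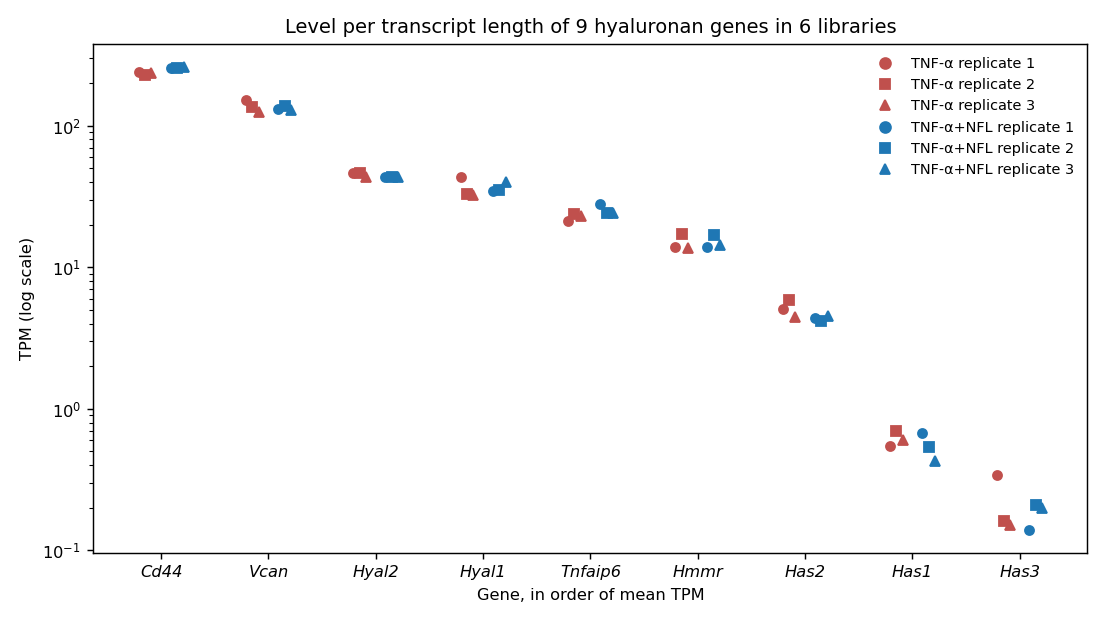
Level per transcript length (TPM, log scale) of the 9 genes in each library, in order of the mean over the 6 libraries. Levels run from 0.14 TPM for Has3 to 260 TPM for Cd44, and of neighbouring genes only Hyal2 and Hyal1 overlap.

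The synthases were compared first. Has2 (Entrez gene 25694) makes long hyaluronan chains. Replicates 1, 2 and 3 of the TNF-α group held 203, 253 and 192 estimated counts of it, against 181, 172 and 189 in the TNF-α+NFL replicates. Normalised, the means were 11.05 ± 1.59 and 9.22 ± 0.407 CPM (SD, n = 3 each). All TNF-α+NFL libraries lay below the TNF-α libraries, but TNF-α replicate 3 and TNF-α+NFL replicate 3 were nearly level at 9.71 and 9.62 CPM, and TNF-α replicate 2 alone was high. Per length the groups overlapped, with 4.54 TPM in TNF-α+NFL replicate 3 and 4.42 TPM in TNF-α replicate 3. On the log2 scale the fold change was -0.26 (standard error 0.105, 95% interval -0.49 to -0.033), with an unadjusted p of 0.028 and an edgeR adjusted p of 0.37. Its exact permutation p was 0.10, the smallest that 3 libraries against 3 allow (two-sided). Leaving out that replicate brought the difference to -0.14 on the log2 scale. Over the alternatives the adjusted p of Has2 ran from 0.15 to 0.82.

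Has1 (Entrez gene 282821) and Has3 (Entrez gene 266805), the other synthases, were near the limit of detection. Has1 had 11, 15 and 13 counts in the TNF-α libraries and 14, 11 and 9 in the TNF-α+NFL libraries. Has3 had 20.8, 13.0 and 13.0 counts in the TNF-α libraries and 11, 14.0 and 16.0 in the TNF-α+NFL libraries. The groups overlapped for both genes. The 95% intervals of the log2 fold change, -0.88 to 0.48 for both, allow a change of nearly 2-fold downwards, so smaller differences were not detectable at this depth. Their edgeR adjusted p was 0.89 in both cases. Has3 was lower with NFL only through TNF-α replicate 1, and left out of the fit this library turned the difference to 0.085 on the log2 scale. Counts of Has3 were fractional in 5 of the 6 libraries, as happens when reads are divided between loci. The fraction was sizeable only in TNF-α replicate 1, at 20.83 counts. With so few counts the level of Has3 is uncertain.

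Has2 supplied most of the synthase RNA in every library. Its share of the summed TPM of the synthases lay between 84.2% and 87.8%, with means of 85.9% ± 1.18 and 85.6% ± 1.93 (SD, n = 3 each) and overlapping groups. The summed TPM of the synthases was 5.93, 6.74 and 5.17 in the TNF-α libraries and 5.19, 4.95 and 5.17 in the TNF-α+NFL libraries. The summed levels met between the groups at TNF-α replicate 3.

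The hyaluronidases were compared next. Hyal2 (Entrez gene 64468), which starts the breakdown of long chains at the cell surface, had 826, 884 and 838 counts in the TNF-α libraries and 800, 797 and 802 in the TNF-α+NFL libraries. The TNF-α libraries were all above the others, at 43.4 ± 1.199 against 40.8 ± 0.017 CPM (SD, n = 3 each). Per length the groups overlapped, with 43.30 TPM in TNF-α replicate 3 below the 43.34 and 43.68 TPM of TNF-α+NFL replicates 1 and 2. The spread between the TNF-α+NFL replicates, a CV of 0.042%, was far below the 3.54% that counting noise gives on average. The log2 fold change was -0.090 (standard error 0.048, 95% interval -0.19 to 0.014, edgeR adjusted p = 0.54).

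Hyal1 (Entrez gene 367166), the lysosomal hyaluronidase, had 1089, 930 and 919 counts in the TNF-α libraries and 936, 914 and 1055 in the TNF-α+NFL libraries. TNF-α replicate 1 and TNF-α+NFL replicate 3 were both high, and the groups overlapped. The means were 50.2 ± 5.92 and 49.4 ± 3.73 CPM (SD, n = 3 each), and the 95% interval of the log2 fold change ran from -0.22 to 0.18 (edgeR adjusted p = 0.97). Without TNF-α replicate 1 the sign turned, at 0.081. In the RefSeq annotation of GRCr8, Hyal1 lies next to Hyal2 and overlaps Naa80 and Hyal3, and its counts were fractional in all 6 libraries, so its own level is uncertain. Hyal1, Naa80 and Hyal3 together were at 93.9 ± 8.18 CPM in the TNF-α group and 96.2 ± 5.68 CPM in the TNF-α+NFL group (SD, n = 3 each), and overlapped too. Hyal1 took between 50.7% and 55.2% of that sum. The ratio of Hyal2 to Hyal1 in TPM was 1.06 to 1.41 in the TNF-α libraries and 1.08 to 1.25 in the TNF-α+NFL libraries.

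Vcan and Tnfaip6 encode matrix proteins with a hyaluronan-binding link module. Vcan (Entrez gene 114122) encodes versican, a large proteoglycan of loose and remodelling matrix. It had 14536, 13467 and 12517 counts in the TNF-α libraries and 12573, 13182 and 12437 in the TNF-α+NFL libraries. TNF-α replicate 1 stood above the rest and TNF-α replicate 3 was level with the lowest TNF-α+NFL library, at 633 CPM each. The means were 692 ± 64.6 and 650.1 ± 22.1 CPM (SD, n = 3 each). The log2 fold change was -0.090 (standard error 0.061, 95% interval -0.23 to 0.046, edgeR adjusted p = 0.66), and without TNF-α replicate 1 it was -0.015. The CV of Vcan between the TNF-α replicates was 10.9 times that of counting noise, so its precision was limited by the spread between replicates, not by depth. The splice forms of versican, which differ in the sugar chains they carry, were not separated in the deposited gene-level values.

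Tnfaip6 (Entrez gene 84397) encodes TSG-6, a protein induced by TNF-α that moves the heavy chains of inter-α-inhibitor onto hyaluronan. It had 277, 332 and 320 counts in the TNF-α libraries and 371, 319 and 325 in the TNF-α+NFL libraries. TNF-α replicate 1 was the lowest and TNF-α+NFL replicate 1 the highest, and the other 4 libraries lay together. The means were 15.8 ± 1.19 and 17.3 ± 1.45 CPM (SD, n = 3 each), with a log2 fold change of 0.13 (standard error 0.083, 95% interval -0.054 to 0.31, edgeR adjusted p = 0.64). Leaving out TNF-α replicate 1 gave 0.068, and leaving out TNF-α+NFL replicate 1 gave 0.056. Of the genes for heavy chains and bikunin, from which inter-α-inhibitor and its relatives are built, Itih1, Itih3, Itih4 and Ambp had at most 2 counts in any library, under the floor of 3 counts, and Itih2 was not analysed here.

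Aggrecan and link protein, the cartilage partners of hyaluronan, were low beside versican. Acan was at 5.11 TPM in the TNF-α group and 5.55 TPM in the TNF-α+NFL group, and Hapln1 at 7.59 and 7.03 TPM. Vcan was at 22.6 to 28.1 times the TPM of Acan over the 6 libraries. Neither Acan (log2 fold change 0.090, adjusted p = 0.80) nor Hapln1 (log2 fold change -0.084, adjusted p = 0.77) passed the edgeR test.

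Cd44 (Entrez gene 25406) encodes the main hyaluronan receptor of chondrocytes, which holds the pericellular coat and takes up hyaluronan fragments. It had 9543, 9647 and 10088 counts in the TNF-α libraries and 10452, 10376 and 10679 in the TNF-α+NFL libraries. Each TNF-α+NFL library was above each TNF-α library, with TNF-α replicate 3 the nearest. The means were 499 ± 10.9 and 536 ± 6.53 CPM (SD, n = 3 each), a log2 fold change of 0.10 (standard error 0.036, 95% interval 0.025 to 0.18). The unadjusted p was 0.013 and the adjusted p 0.28 by edgeR, and its exact permutation p was 0.10, the smallest possible. With TNF-α replicate 1 left out, the difference was again 0.10 on the log2 scale and the adjusted p was 0.041, with 460 genes then higher and 470 lower in all. Without TNF-α replicate 2 the adjusted p was 0.63, and this was its highest value over the alternatives. Splice forms of CD44 were not separated.

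The 3 genes whose pattern over the 6 libraries was most like that of Cd44 were sought among the 9095 tested genes with a mean of at least 10 CPM. They were Ptpn9, a tyrosine phosphatase gene, Serinc3 and Lmo7. The root mean square difference of their centred log2 values from those of Cd44 was 0.0095, 0.011 and 0.011. Their log2 fold changes were 0.098, 0.11 and 0.091.

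Hmmr (Entrez gene 25460) encodes RHAMM, a hyaluronan-binding protein that also sits on the mitotic spindle and whose RNA is known to peak in G2 and mitosis. It had 307, 403 and 323 counts in the TNF-α libraries and 315, 374 and 323 in the TNF-α+NFL libraries. Replicate 2 was the highest in both groups and the groups overlapped. The means were 17.6 ± 2.43 and 17.2 ± 1.68 CPM (SD, n = 3 each), and the 95% interval of the log2 fold change was -0.26 to 0.19 (edgeR adjusted p = 0.95). RefSeq lists RHAMM as an older name of both Hmmr and Cd44, and the genes were followed here by symbol and Entrez identifier.

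Genes of mitosis were set beside Hmmr. Of the 26 genes on the list, such as Mki67, Top2a and Ccnb1, 0 passed an adjusted p of 0.05 by edgeR, where 0.611% of all genes did, and 2 had an unadjusted p under 0.05. DESeq2 called 0 of the 15 for which it gave an adjusted p, beside 2.44% of all genes, and 1 of 26 had an unadjusted p under 0.05. The shares of all genes were 11.1% at an unadjusted p by edgeR and 5.93% by DESeq2. Their median log2 fold change was -0.068, with 20 of 26 negative, beside -0.0035 for all genes. Leaving out TNF-α replicate 2 gave a median of -0.020, and leaving out TNF-α+NFL replicate 3 one of -0.024. The most abundant members were Ube2c, Cdk1 and Prc1, at 56.6, 53.8 and 43.8 TPM in the TNF-α group and 54.1, 51.5 and 45.6 TPM in the TNF-α+NFL group. The summed CPM of the list was 977, 1017 and 912 in the TNF-α libraries and 947, 968 and 891 in the TNF-α+NFL libraries. As with Hmmr, replicate 2 was the highest of each group.

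**Figure D3:**
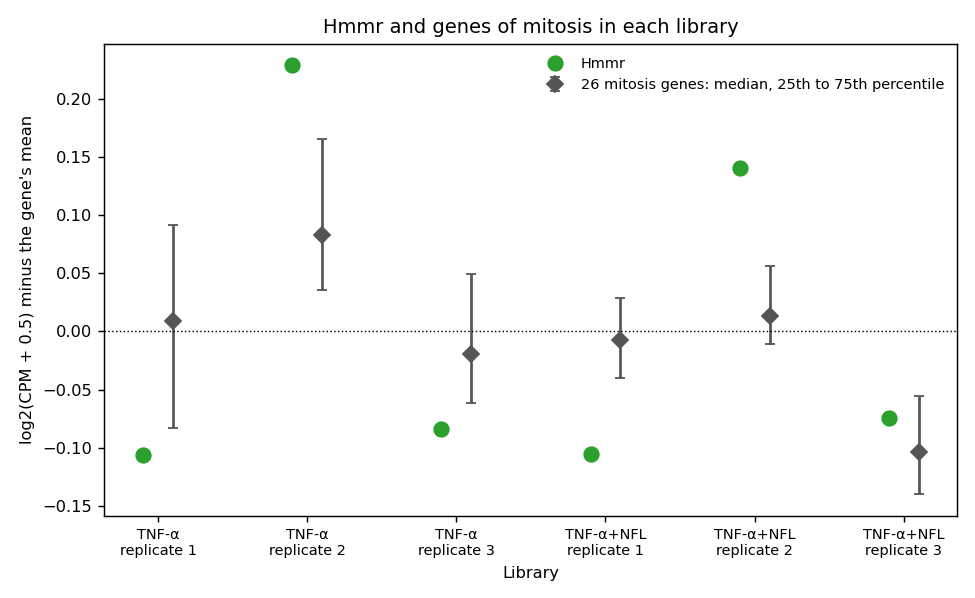
Hmmr (green) and the 26 genes of mitosis (grey, median with the 25th to 75th percentile) in each library, as the log2 normalised count minus the gene's own mean. Hmmr was 0.23 above its mean in TNF-α replicate 2 and 0.14 above it in TNF-α+NFL replicate 2, and below it in the other 4 libraries.

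The rest of the hyaluronan pathway was described by 5 lists of 64 symbols in all, of which 58 genes were matched and 45 tested. By edgeR, 2 of the 45 were lower with NFL at an adjusted p under 0.05 and 0 were higher. Among all genes tested, 0.204% were lower and 0.408% higher. The genes that fell were Tlr2 and Gpi. The median log2 fold change of the 45 was -0.025, with 19 positive and 26 negative values.

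Tlr2 encodes a Toll-like receptor that also responds to hyaluronan fragments. Its normalised count was 319, 302 and 329 CPM in the TNF-α libraries and 262, 262 and 264 CPM in the TNF-α+NFL libraries, with a wide gap between the groups. The log2 fold change was -0.27 (SE 0.040, edgeR adjusted p = 0.0083). It passed the threshold in 9 of 13 alternatives and not without any 1 of the TNF-α+NFL replicates, where the adjusted p was 0.085 to 0.11 and the log2 fold change -0.27. Tlr4, the related receptor, had a log2 fold change of -0.0010. Of the 8 tested genes on the list of other receptors and intracellular binding proteins, 3 were positive and 5 negative. C1qbp, an abundant hyaluronan-binding protein of mitochondria, had a log2 fold change of -0.047. Lyve1, Stab1 and Stab2, the hyaluronan receptors of lymph vessels and sinusoids, had at most 16.5 counts.

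The precursor genes supply the sugar nucleotides from which hyaluronan is made. Of 13 tested genes, 4 were positive and 9 negative, and Gpi was the only one past the threshold. Gpi, whose enzyme makes the fructose 6-phosphate shared by glycolysis and the hexosamine route, was at 740 ± 12.2 CPM in the TNF-α group and 652 ± 3.41 CPM in the TNF-α+NFL group (SD, n = 3 each). The log2 fold change was -0.18 (SE 0.035, edgeR adjusted p = 0.036), and it passed in 5 of 13 alternatives. Of the fits without 1 library, it passed only without TNF-α replicate 1 and had an adjusted p of 0.11 to 0.28 in the other 5, while its log2 fold change stayed between -0.19 and -0.17. The enzymes closer to hyaluronan itself did not pass. Ugdh, which makes UDP-glucuronic acid, had a log2 fold change of -0.051 (adjusted p = 0.69), and Gfpt2, which directs fructose 6-phosphate to hexosamines, of -0.22 (adjusted p = 0.14).

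Among other breakdown genes, 0 of 7 tested passed by edgeR and 0 had an unadjusted p under 0.05, beside 0.611% and 11.1% of all genes. DESeq2 called 0 of the 4 with an adjusted p, and 1 of 7, Cemip, had an unadjusted p under 0.05, as had 5.93% of all genes. Hexa, which encodes a lysosomal enzyme subunit, was at 188 TPM in the TNF-α group and 191 TPM in the TNF-α+NFL group. Cemip, which encodes a hyaluronan depolymerase known from skin and synovial fibroblasts, was at 94.2 and 105 TPM, above both Hyal1 and Hyal2. The log2 fold change of Cemip was 0.13, and its replicates overlapped.

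Of 8 tested genes on the list of other matrix binding proteins, 0 passed by edgeR and 2 had an unadjusted p under 0.05, beside 0.611% and 11.1% of all genes. DESeq2 called 0 of the 2 with an adjusted p, and 0 of 8 had an unadjusted p under 0.05, beside 2.44% and 5.93% of all genes. Fbln2, a partner of versican, was at 193 TPM in both groups. Ptx3, which encodes a pentraxin that TSG-6 binds, was at 72.3 and 79.4 TPM. The smallest p was that of LOC684327, which RefSeq lists as Itih5, a heavy chain relative, at 5.20 ± 0.051 CPM in the TNF-α group and 6.48 ± 0.426 CPM in the TNF-α+NFL group (SD, n = 3 each, adjusted p = 0.27). The other gene at an unadjusted p under 0.05, Hapln4, was lower with NFL (log2 fold change -0.36, edgeR adjusted p = 0.34). Among 9 CD44 partners, 0 passed by edgeR and 2 had an unadjusted p under 0.05, beside 0.611% and 11.1% of all genes. These 2 were Spp1, which was lower with NFL, and Nf2, which was higher (log2 fold change 0.098, edgeR adjusted p = 0.40). The groups did not overlap for 4 partners that were higher and 1 that was lower, beside 8.66% and 8.17% of all genes. DESeq2 called 0 of the 8 with an adjusted p, and 1 of 9 had an unadjusted p under 0.05, beside 2.44% and 5.93% of all genes. Spp1, which encodes the CD44 ligand osteopontin, was at 965 ± 34.7 and 881 ± 20.3 CPM (SD, n = 3 each, adjusted p = 0.21). Mmp14, a protease that sheds CD44, was at 1054 and 1040 TPM. The linkers of CD44 to the cytoskeleton, Msn, Rdx and Ezr, had log2 fold changes of 0.063, 0.082 and -0.049.

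**Figure D4:**
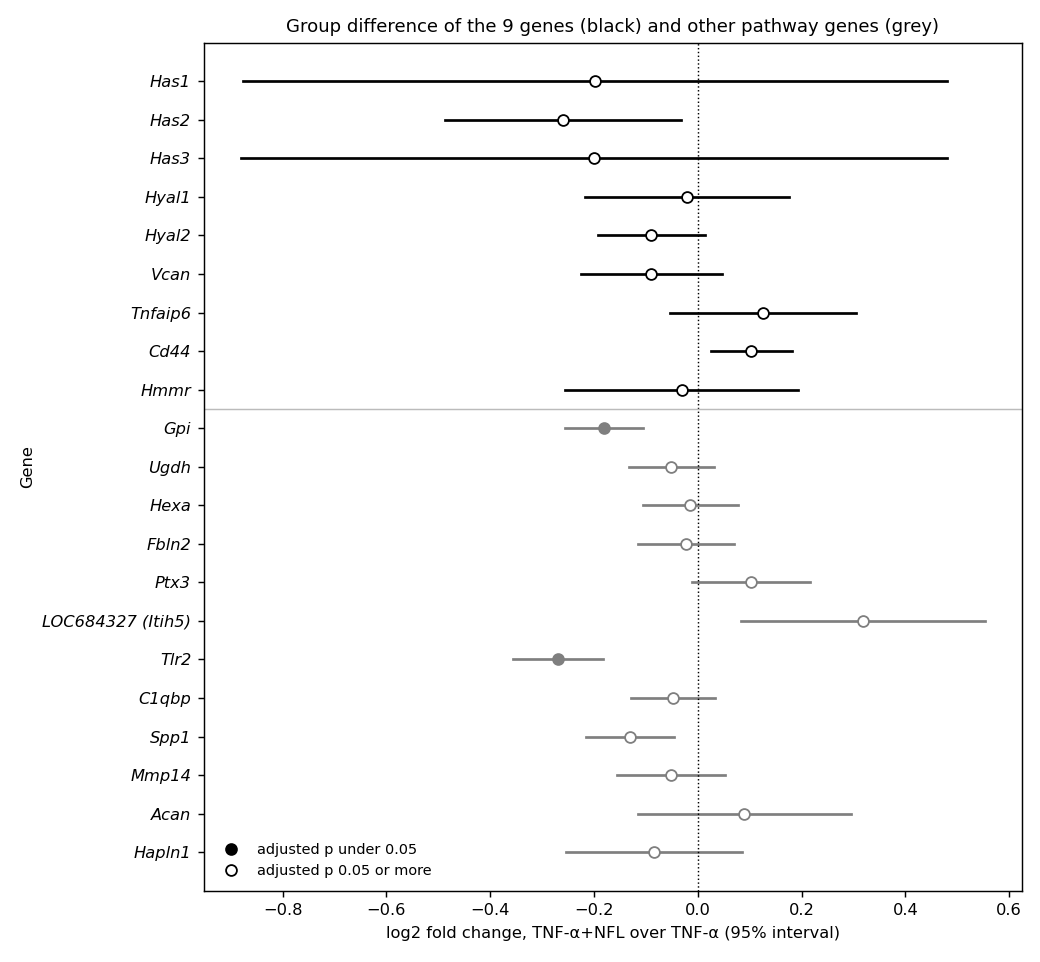
Log2 fold change with its 95% interval for the 9 hyaluronan genes (black) and other named pathway genes (grey), with filled points for an adjusted p under 0.05. Only Gpi and Tlr2 are filled, and the intervals of Has1 and Has3 are the widest.

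The libraries differed in where they stood for the 9 genes. TNF-α replicate 1 was the highest library for Has3, Hyal1 and Vcan and the lowest for Tnfaip6 and Hmmr, and so at an extreme for 5 of 9 genes, as it was for 40.9% of all tested genes. TNF-α replicate 2 was at an extreme for 5 genes also, as the highest for Has1, Has2, Hyal2 and Hmmr and the lowest for Cd44, and for 31.9% of all tested genes. TNF-α replicate 3 was at an extreme for 2 of the 9 genes and for 41.5% of all tested genes. Each TNF-α+NFL library was at an extreme for 2 of the 9 genes and for 26.7% to 31.3% of all tested genes. The CV between replicates was larger in the TNF-α group than in the TNF-α+NFL group for 7 of the 9 genes, with Has1 and Tnfaip6 as the exceptions, and for 62.7% of all tested genes. Cd44 was the steadiest gene of the TNF-α group, with a CV of 2.18%, and Has3 the least steady, with a CV of 31.7% where counting noise gives 25.3%.

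**Figure D5:**
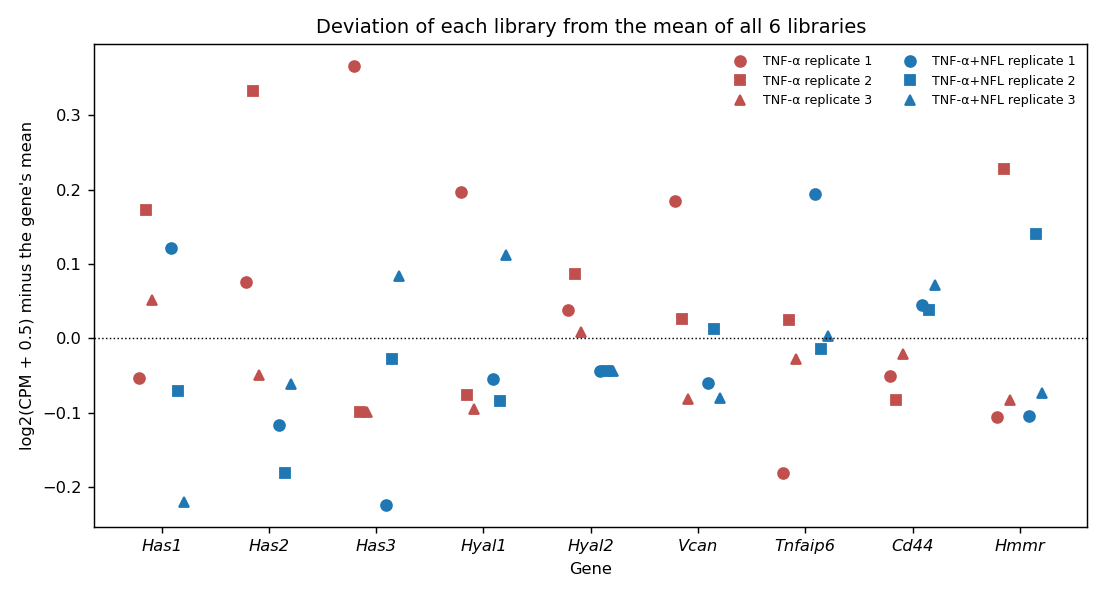
Log2 normalised count of each hyaluronan gene in each library minus the gene's mean over the 6 libraries. TNF-α replicate 1 is 0.37 above the mean for Has3, 0.20 for Hyal1 and 0.18 for Vcan, and TNF-α replicate 2 is 0.33 above it for Has2.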

How the data were processed

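RNA-seq of 6 chondrocyte libraries, 3 per group, was analysed. Per the labels, mRNA was purified on oligo(dT) beads and read from one end. The deposited table holds estimated counts, left unscaled by the authors. FPKM, which the authors scaled to transcript length and mapped reads, and deposited TPM, scaled to length and a fixed sum, stand beside them. The submitters' processing notes name HISAT2 2.0.4, Bowtie2 2.2.5, RSEM 1.2.12 and Rnor_6.0, without their roles. The annotation and strand setting are not given in the sources used here. After rounding, the estimated counts went into edgeR 4.0.16, run under R 4.3.3 (low-count filter filterByExpr, TMM scaling, robust quasi-likelihood, two-sided, Benjamini-Hochberg adjustment over 13250 genes). CPM are counts per 1000000 of the TMM-scaled library size, standard errors come from the F statistic, and 95% intervals use its degrees of freedom. TPM served for levels between genes. Alternatives were DESeq2 1.42.0, limma 3.58.1, other filters, size factors and thresholds, the replicate number as a block, and leaving out each library. The test was checked on simulated data. Of genes changed by 0.3 on the log2 scale it recovered 32.8%, and of those changed by 1 it recovered 89.5%. Changes of the smaller size were thus mostly missed. False calls made up 6.1% and 5.7% of the calls, at an adjusted p threshold of 0.05.

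The 9 members and all lists were chosen with earlier results of these data known, the lists from general knowledge. Named are the 9 members, Acan and Hapln1. Of each pathway list, genes past the threshold, the 2 most abundant and that with the smallest p are named, and of mitosis the 3 most abundant. The 3 genes most like the member with the smallest p are added. Genes named for a role, such as Tlr4, Gfpt2, Cemip, the Itih genes, Lyve1, Stab1, Stab2 and the CD44 linkers, and the single markers printed, were chosen after their values were seen. So were Hapln4 and Nf2, named for their unadjusted p. Promoter sequences were not printed since no measurement bears on them. A gene that the naming rule selects among the other breakdown genes is not reported here.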

Additional observations from a re-analysis of the deposited data

How the results depend on the processing

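The number of hyaluronan genes called was 0 higher and 0 lower under every alternative except at an unadjusted p under 0.05, with 1 and 1, and without single libraries, where 0 to 1 were higher, the 1 being Cd44 without TNF-α replicate 1. The other pathway genes called, 0 higher and 2 lower, became 2 and 6 at an unadjusted p, 0 lower with limma on log2(FPKM + 1) and 1 lower with limma-voom. Without single libraries they ran from 0 to 1 higher and from 0 to 4 lower. Of all genes, 54 were higher and 27 lower. These became 84 and 48 without the low-count filter, 95 and 53 with the DESeq2 Wald test, 26 and 9 with limma-voom, 3 and 3 with limma on log2(FPKM + 1), 100 and 64 at an adjusted p under 0.10 and 750 and 722 at an unadjusted p. Without single libraries they ran from 5 to 460 higher and from 0 to 470 lower, the most without TNF-α replicate 1 and the fewest without TNF-α+NFL replicate 1. The cause was not tested.

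A replicate block in the fit left 25 genes higher and 9 lower, and 1 other pathway gene was lower. Whether the numbers pair the samples was not settled. The correlations of the deviations of same-numbered libraries were -0.011, -0.024 and 0.080. Such small values cannot exclude pairing, since counting noise makes up much of the spread, above all in the TNF-α+NFL group.

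Over the 6 fits that left out 1 library, the log2 fold change changed sign for Has3 (-0.32 to 0.085), Hyal1 (-0.083 to 0.081), Hmmr (-0.11 to 0.092), Hexa (-0.036 to 0.024), Fbln2 (-0.056 to 0.0092), Mmp14 (-0.084 to 0.011) and Prc1 (-0.0072 to 0.091). Among the 28 genes run under the alternatives, which leave out the genes named for a role, Hapln4, Nf2 and the markers, no other alternative changed a sign. Has1 could not be tested with at least 10 counts required. The spread between replicates was below that of counting noise for Has1 and Hyal2 in both groups and for Has2 and Has3 in the TNF-α+NFL group.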
